A study of Mus musculus with 8 samples.

Results

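Regulatory T cells (Treg) of mice without MHC class II outside the thymus were set against Treg of control mice on 4 of the 8 bead arrays of the series, as 1 pair from the spleen and 1 pair from the small intestine, called gut here. The mice called K14 are labelled K14Aβb, FOXP3GFP and lack MHC class II everywhere but in the thymus, and the control mice are labelled MHCII+/-, FOXP3GFP. Both genotypes are on the C57B6 strain, carry the GFP reporter of Foxp3, were 7 to 14 weeks old and gave pools of male and female cells. The sort gate took live cells positive for TCRb and CD4 and negative for CD8 and B220: those with GFP are the Treg, and those without it, the conventional T cells (Tcon), fill the other 4 arrays. Each array holds the RNA of 1 pool of several mice, so each Treg group has 1 array, and the pair of a tissue is the unit of comparison. The genes chosen are those that differed in 1 direction in both tissues and were detected (detection p under 0.05) on both arrays of the brighter genotype. Of 7916 genes tested, 1667 (21.1%) were higher in K14 Treg by this rule and 1891 (23.9%) were lower, while 3821 had opposite signs in the 2 tissues.

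Treg restrain immune responses and depend on the transcription factor Foxp3. Most are selected in the thymus through the T cell receptor (TCR), which recognises peptides on MHC class II. In the periphery the same contact, made with antigen-presenting cells, helps to keep Treg activated and dividing, and gut Treg carry an effector profile with genes such as Klrg1 and Il10. In the K14 line a transgene under the keratin 14 promoter restores the class II beta chain in the thymic epithelium of mice that otherwise lack it, so K14 Treg can be selected but do not meet the molecule in spleen or gut.

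The 4 Treg arrays had 9017 to 9414 of 25697 probes detected and median signals of 211.4 to 250.2 units. Signals near the top of the scale, above 60000 units, were held by 44 to 61 probes per array and are lower bounds. Across genes, which are not independent replicates, the K14 and the control array correlated at r = 0.949 in the spleen and 0.952 in the gut. Of 17 Treg core genes, 14 were higher on the array labelled Treg than on the matching Tcon array in all 4 pairs. The share of all genes that were so was not counted. Foxp3 itself was among the 3 exceptions, and the probe used lay near background on every Treg array, at 6.92 in K14 and 6.95 in control spleen Treg and at 6.78 in K14 and 6.76 in control gut Treg (log2 levels). Another of its 3 probes was detected on the K14 gut array alone, with 427.6 units in K14 and 228.9 units in control gut Treg. H2-Ab1, the class II beta chain gene that the line lacks outside the thymus, did not mark the genotype. Its brightest probe read 9240.5 units in K14 spleen Treg against 2558.5 units in control spleen Treg, and 2348.8 units in K14 gut Treg against 2482.1 units in control gut Treg. Its other detected probes read 7767.1 and 1568.7 units in K14 and 2667.2 and 824.2 units in control spleen Treg. In gut Treg they read 2004.9 and 644.3 units in K14 and 2038.7 and 818.4 units in control. The dimmest of its 4 probes, with 202.8 and 202.5 units in K14 and 299.1 and 273.7 units in control spleen and gut Treg, was detected on none of the 4 Treg arrays. In Tcon the brightest probe was higher in K14 in both tissues. It read 8660.7 units in K14 and 3681.4 units in control spleen Tcon, and 6881.4 units in K14 and 5043.9 units in control gut Tcon. Where these probes lie relative to the inactivated part of the gene is not given in the sources used here, so K14 stands below for the arrays labelled K14. Eif2s3y, a Y-linked gene, was detected on both K14 Treg arrays and on neither control Treg array, with log2 levels of 7.05 and 8.08 in K14 and 5.34 and 5.48 in control spleen and gut Treg. The share of male cells per pool is not given, and its part in the differences below was not tested.

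No gene passed the test of genotype within Treg. limma over all 8 arrays gave 0 of 7916 genes (0%) at an adjusted p under 0.05, with a smallest adjusted p of 0.435 and with 499 genes at an unadjusted p under 0.05. The difference between the genotype effect in Treg and that in Tcon gave 0 genes (0%) as well, with 386 genes at an unadjusted p under 0.05. The error rests on 2 residual degrees of freedom. These are the gaps between the genotype differences of the spleen and the gut pair, in Treg and in Tcon. A p-value here therefore reflects how far the tissues disagree, in which a tissue-specific genotype effect and the scatter of single arrays cannot be told apart. It does not reflect the scatter of mice. The error of a Treg difference also draws on the gut Tcon pair, whose control array holds pancreas transcripts. Values below are therefore described by their size in each pair. A difference is K14 minus control on the log2 scale, and an error is limma's standard error of the mean over the 2 Treg pairs. Where a difference between Treg and Tcon is given, its error is limma's standard error of that contrast.

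A larger difference, at least 1 log2 in both tissues, was reached by 133 genes higher in K14 Treg (1.68%) and by 120 genes lower (1.52%). By comparison, 134 genes differed by at least 1 log2 in opposite directions, 79 of them higher in the K14 spleen and lower in the K14 gut array. One tissue alone gave 611 genes higher and 551 lower in the spleen, and 516 higher and 578 lower in the gut. Of the 133 higher genes, 41 were detected on neither control Treg array and 55 (41.35%) on all 4 Treg arrays. Of the 120 lower genes, 36 were detected on neither K14 Treg array and 56 (46.67%) on all 4. Of all genes tested, 5897 (74.49%) were detected on all 4. Among those 5897 genes, 0.93% were higher and 0.95% lower by at least 1 log2 in both tissues. The limit fell among close values: Snx21 lay just inside with a smaller difference of 1.00041 and Ier3 just outside with 0.999257. The counts depend on the background correction, with 63 genes higher and 42 lower when none was made. A second probe detected on both brighter arrays existed for 12 of the higher genes and pointed the same way in 10 of them, and for 13 of the lower genes, of which 10 did so.

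**Figure D1:**
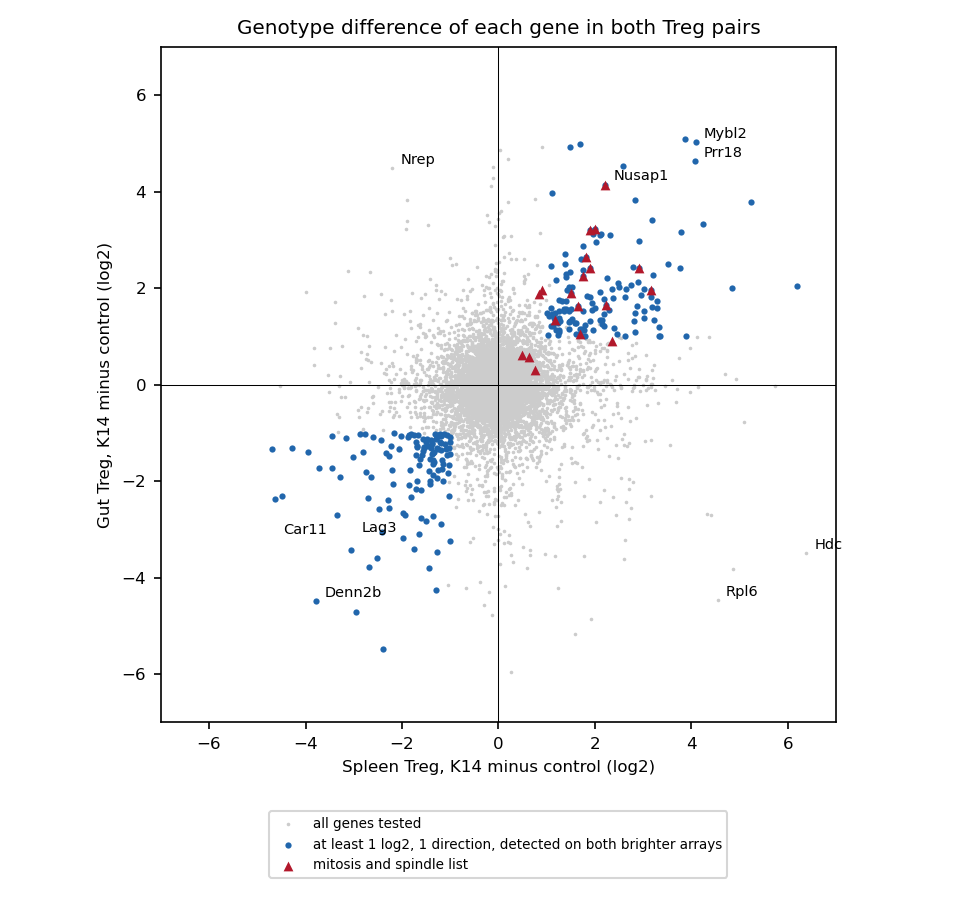
Difference between K14 and control Treg (log2) of each of 7916 genes in the spleen pair (horizontal axis) and the gut pair (vertical axis). Blue points are the 133 higher and 120 lower genes with at least 1 log2 in both tissues, and red triangles are the 19 tested mitosis and spindle genes, all of which lie above 0 on both axes. Hdc and Rpl6 at the lower right and Nrep at the upper left differed in opposite directions.

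The mitosis and spindle genes that passed the filter were all higher in K14 Treg. Mitosis and spindle genes build the spindle, move chromosomes and time the exit from mitosis, and they are transcribed mainly in dividing cells. All 19 tested members of this list of 42 were higher in K14 Treg in both tissues, 13 of them by at least 1 log2 in both, against a median of -0.02 in the spleen and -0.01 in the gut over all genes. Their median difference was 1.75 in spleen Treg and 1.90 in gut Treg. None passed the test after adjustment, and 13 had an unadjusted p under 0.05. Counts of list members, here and below, go by the sign of both differences and do not ask for detection. By sign alone 24.2% of all genes tested were higher in both tissues and 27.3% lower in both.

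The filter bears on this count, since a dim gene could be kept because of its K14 arrays alone. Without it, 34 members are on the array, and 26 were higher and 4 lower in both tissues, with medians of 0.80 in the spleen and 0.65 in the gut. Over all 16593 genes without the filter, 4078 were higher and 4316 lower in both. Among the 12 members detected on all 4 Treg arrays, 12 were higher in both tissues, with medians of 1.34 and 1.49. With the filter taken from the 4 Tcon arrays alone, a choice made after seeing the data, 18 of 18 members were higher in both. The mean-difference median of the list was 1.70 and became 0.59 without the filter.

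The promoters of these genes were read for what they share beyond their levels. RefSeq windows (GRCm38.p6) reach from 250 bases before to 50 bases after a gene's start, and 18 of the 19 members have one. Mitotic promoters are known for a CCAAT box and for the cell cycle homology region, CHR. CCAAT (or ATTGG on the other strand) stood in 14 of the 18 windows, 77.8%, against 37.9% of 27025 genes' windows and 39.2% of those of genes tested. TTTGAA (or TTCAAA), the core of the CHR, stood in 15, 83.3%, against 18.1% and 11.9%. Both stood in 14, 77.8%, against 7.12% of all windows and 4.92% of the 6503 windows of genes tested. These are letter matches and not measured binding. They describe genes listed for their role in mitosis and carry no information on the genotype difference. List members left out by the filter were not read. Shown are 4 of the 5 members with the largest smaller difference, along the gene's strand, with both motifs in capitals. The 2 motifs share no letter in them. Kif11 lies at chr19:37376132-37376431 (plus strand), Spag5 at chr11:78301341-78301640 (plus strand), Aurka at chr2:172370521-172370820 (minus strand) and Bub1b at chr2:118597961-118598260 (plus strand).
Kif11: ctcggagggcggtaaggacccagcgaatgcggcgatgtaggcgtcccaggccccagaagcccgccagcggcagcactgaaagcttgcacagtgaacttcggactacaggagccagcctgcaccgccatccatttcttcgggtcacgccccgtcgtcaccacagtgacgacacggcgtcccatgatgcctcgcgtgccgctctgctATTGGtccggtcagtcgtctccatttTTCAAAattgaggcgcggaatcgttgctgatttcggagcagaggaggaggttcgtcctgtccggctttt
Spag5: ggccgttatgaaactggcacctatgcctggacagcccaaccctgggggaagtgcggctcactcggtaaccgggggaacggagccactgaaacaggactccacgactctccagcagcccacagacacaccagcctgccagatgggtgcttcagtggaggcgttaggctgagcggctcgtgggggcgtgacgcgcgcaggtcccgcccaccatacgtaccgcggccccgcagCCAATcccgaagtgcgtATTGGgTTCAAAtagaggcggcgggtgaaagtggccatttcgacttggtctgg
Aurka: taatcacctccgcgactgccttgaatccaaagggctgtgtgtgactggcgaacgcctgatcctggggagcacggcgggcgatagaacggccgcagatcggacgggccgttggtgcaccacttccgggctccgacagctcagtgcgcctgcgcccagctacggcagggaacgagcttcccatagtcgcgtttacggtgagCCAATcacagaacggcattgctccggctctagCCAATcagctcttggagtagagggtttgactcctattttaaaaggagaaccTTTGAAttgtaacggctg
Bub1b: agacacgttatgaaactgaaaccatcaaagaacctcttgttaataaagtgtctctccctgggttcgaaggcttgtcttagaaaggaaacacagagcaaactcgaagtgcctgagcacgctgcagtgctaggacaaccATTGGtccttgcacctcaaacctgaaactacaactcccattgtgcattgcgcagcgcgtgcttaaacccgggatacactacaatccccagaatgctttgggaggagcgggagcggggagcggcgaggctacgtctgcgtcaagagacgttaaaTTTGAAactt
In each of these windows the TTTGAA match lies downstream of a CCAAT match. Nusap1, the remaining member of the 5, holds neither motif in its window.

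Motor proteins and spindle factors led the list. Kif11, the kinesin that pushes the spindle poles apart, had log2 levels of 8.96 in K14 and 6.04 in control spleen Treg, and of 8.11 in K14 and 5.69 in control gut Treg. It was detected on both K14 arrays and on neither control array, so that its mean was at least 3.48-fold higher in K14 Treg (difference 2.67 ± 0.28, limma adjusted p = 0.436). Nusap1, which bundles spindle microtubules, read 11.09 in K14 and 8.88 in control spleen Treg, and 10.37 in K14 and 6.22 in control gut Treg, where it was not detected. Spag5, an astrin that holds spindle and centrosome together, read 9.58 in K14 and 7.58 in control spleen Treg, and 9.37 in K14 and 6.15 in control gut Treg. In all 3 genes the K14 array was the higher in each tissue, and the lowest K14 level of a gene lay above its highest control level for Kif11, Nusap1 and Spag5 alike. Kif23, a kinesin of the cell midzone, differed by 2.23 in the spleen and 1.65 in the gut, and Prc1, which crosslinks midzone microtubules, by 1.51 and 1.90.

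Kinases and checkpoint genes followed. Cdk1, the kinase that drives entry into mitosis, was detected on both K14 Treg arrays and on neither control array, with differences of 1.89 in the spleen and 2.41 in the gut. Aurka, a centrosome kinase, read 9.88 in K14 and 6.71 in control spleen Treg, and 8.95 in K14 and 6.99 in control gut Treg. Bub1b, of the spindle checkpoint, read 10.80 in K14 and 8.91 in control spleen Treg, and 9.39 in K14 and 6.17 in control gut Treg. The gap was larger in the spleen for Aurka and in the gut for Bub1b. Plk1, another mitotic kinase, differed by 0.90 in the spleen and 1.97 in the gut, and Cdc20, the activator of the anaphase-promoting complex, by 2.36 and 0.91. Chromosome proteins ranged from Top2a, the topoisomerase that untangles sister chromatids, with 1.81 in the spleen and 2.65 in the gut, down to Cenpa, the histone of the centromere, with 0.76 and 0.30. The sizes depend on the background correction. The mean difference of Kif11 was 2.67, against 1.34 without the correction and 0.95 in the authors' log2 values, where Nusap1 had 1.90, Spag5 1.23 and Aurka 1.22.

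**Figure D2:**
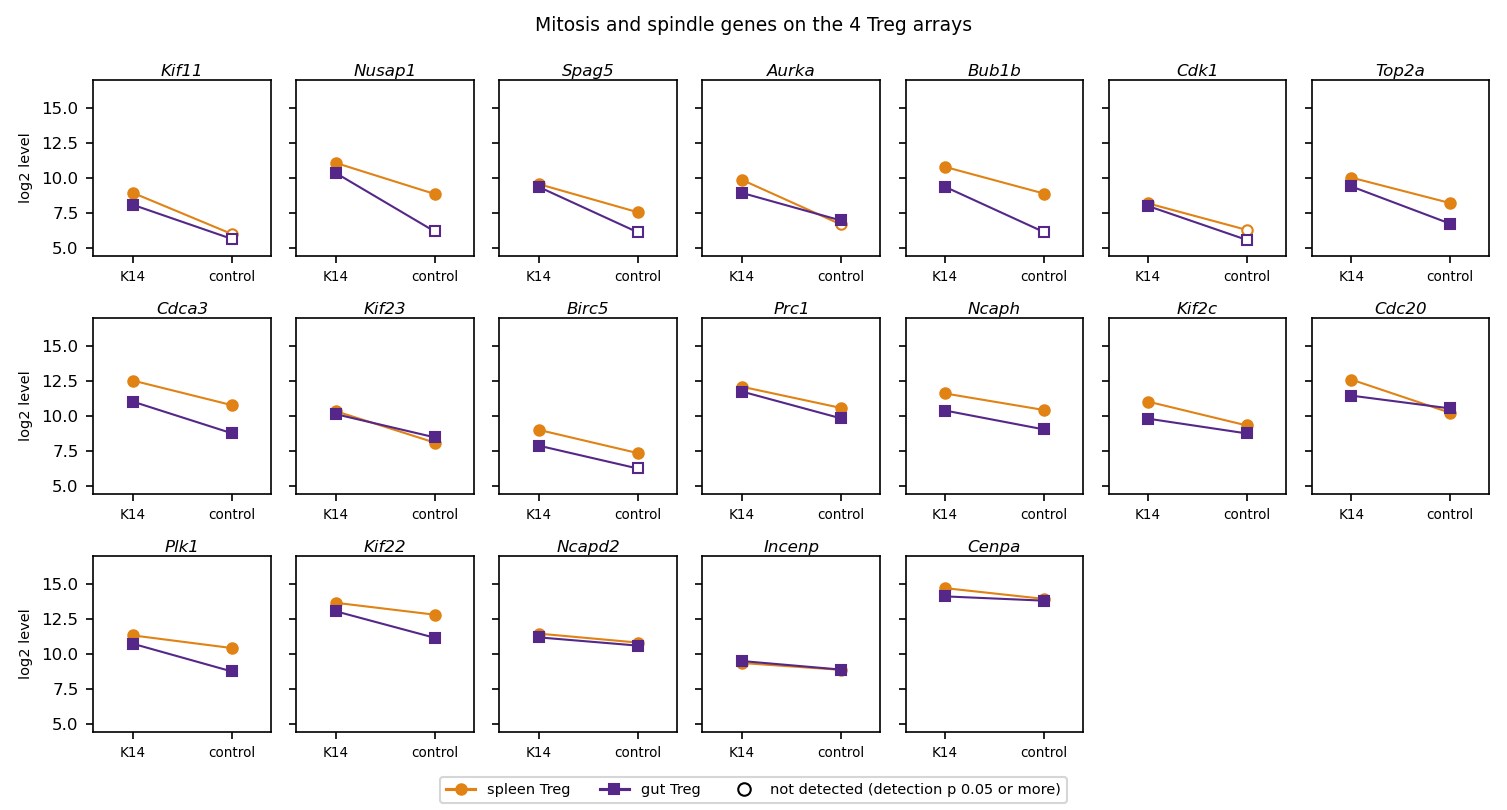
Log2 level of the 19 tested mitosis and spindle genes on the K14 (left) and the control (right) Treg array of the spleen (orange circles) and the gut (purple squares). Each line joins the 2 arrays of 1 tissue, and open symbols were not detected. Every line descends toward the control, most steeply for Nusap1 in the gut, with 10.37 in K14 and 6.22 in control.

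DNA replication genes, which act before mitosis, pointed the same way with smaller differences. Of 26 tested members, 19 were higher and 1 was lower in both tissues, with medians of 0.51 in the spleen and 0.58 in the gut. Dut, which removes dUTP, was the lower one, at -0.31 and -0.33. Chaf1a, a chaperone that places histones behind the replication fork, read 9.15 in K14 and 5.94 in control spleen Treg, and 9.12 in K14 and 6.85 in control gut Treg. Mcm10, a replication initiation factor, read 10.37 in K14 and 8.89 in control spleen Treg, and 10.43 in K14 and 5.50 in control gut Treg. For both genes the K14 levels of the 2 tissues were alike and lay above both control levels. E2f1, a transcription factor of S phase genes, was far apart in the spleen, with 10.96 in K14 and 6.85 in control, and less so in the gut, with 10.22 in K14 and 9.23 in control. Tk1, a thymidine kinase, differed by 1.24 and 1.02, and Cdc6, which loads the helicase, by 1.74 and 1.15. None passed the test, and 8 had an unadjusted p under 0.05. In the authors' log2 values some mean differences were smaller by over 1.5 times, with 1.14 for Chaf1a, 1.74 for Mcm10, 0.57 for Cdc6 and 1.61 for E2f1. That of Tk1, 1.13, was 0.91 at its lowest over the alternatives with both Treg pairs kept.

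The same lists in Tcon were measured on other arrays. Mitosis genes had a median difference of 0.26 in spleen Tcon and 1.63 in gut Tcon, and DNA replication genes -0.01 and 0.60. The spleen median of the mitosis list was larger in Treg than in Tcon, and the gut medians lay close together. No member of either list passed the test of Treg against Tcon. The control gut Tcon array holds pancreas transcripts. The tested exocrine pancreas markers summed to 65300 there and to 3417 on the K14 gut Tcon array. Their part in the gut Tcon differences, here and below, was not tested. Markers of other cells moved with the spleen pair. The summed level of the 16 tested myeloid markers was 54956 in K14 and 15002 in control spleen Treg, and 18430 in K14 and 12157 in control gut Treg, while the summed level of the mitosis list was 76705 and 35220 in the spleen and 47332 and 23953 in the gut in the same order. The part of other cells in the mitosis difference was not tested.

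**Figure D3:**
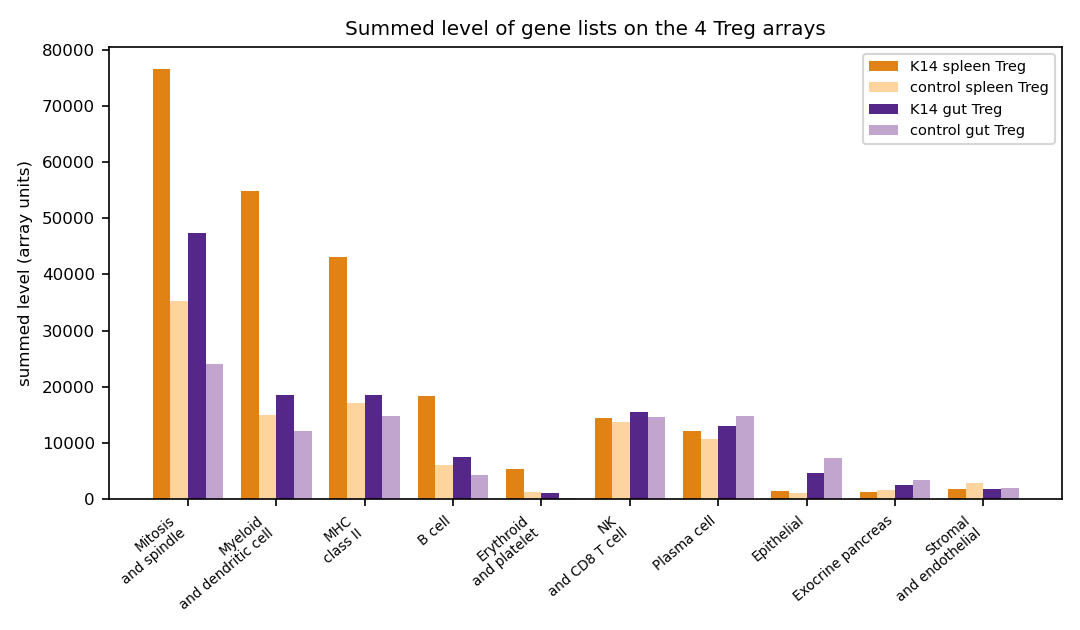
Summed level, in array units after background correction and normalization, of the tested members of the mitosis list and of 9 marker lists on the 4 Treg arrays. In each cluster the bars stand, from the left, for K14 and control spleen Treg and for K14 and control gut Treg. Myeloid, MHC class II, B cell and erythroid sums were highest on the K14 spleen array, and the mitosis sum was higher in K14 in both tissues.

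Among the 12 highest genes, Mybl2 stood out for its contrast with Tcon. Mybl2 encodes B-Myb, a transcription factor that activates mitotic genes with the MuvB complex. Its log2 level was 9.44 in K14 and 5.35 in control spleen Treg, and 10.83 in K14 and 5.79 in control gut Treg. It was detected on both K14 and on neither control Treg array, which makes it at least 10.5-fold higher in K14 Treg on the background-corrected scale. Its mean difference of 4.56 was 2.16 in the authors' log2 values. In Tcon the order was turned round, with differences of -3.51 in the spleen and -3.21 in the gut. The difference between Treg and Tcon, 7.92 ± 0.46, had the smallest p of that comparison and did not pass after adjustment (limma adjusted p = 0.371). Cdca2, which targets a phosphatase to mitotic chromatin, differed by 3.78 and 3.17, and Kif4, a chromosome-bound kinesin, by 2.91 and 2.99. Both belong to cell division without being on the list. Foxm1, a transcription factor of mitotic genes chosen here after its values were seen, was also among the 133.

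The remaining genes at the top are described singly. Prr18 read 10.64 in K14 and 6.56 in control spleen Treg, and 10.95 in K14 and 6.32 in control gut Treg, at least 16.7-fold higher, with Tcon differences of -0.32 and -0.97. Col18a1, a basement membrane collagen, differed by 3.87 in the spleen and 5.09 in the gut. Lrg1, a secreted glycoprotein, differed by 5.23 and 3.79, and Tenm4, a transmembrane teneurin, by 4.25 and 3.33. These 4 genes were detected on neither control Treg array. Tmem51 differed by 2.83 and 3.82, Stard8 by 2.58 and 4.53, Dkk3, a secreted Dickkopf family protein, by 3.52 and 2.51, and Ap3s2, an adaptor complex subunit, by 2.78 and 2.44. Hba-a1, the alpha globin of red cells, read 11.58 in K14 and 8.41 in control spleen Treg, and 9.70 in K14 and 6.29 in control gut Treg. It was the only tested erythroid gene to differ by 1 log2 in both tissues, and it was higher in both Tcon pairs too, by 3.69 and 1.52.

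The lowest genes in K14 Treg are described singly as well. Denn2b, a DENN domain protein of membrane traffic, had log2 levels of 5.16 in K14 and 8.95 in control spleen Treg, and of 5.27 in K14 and 9.75 in control gut Treg. It was detected on neither K14 array and was at least 6.11-fold lower in K14 Treg, whereas in Tcon it was higher in K14 by 1.03 and 3.56. The difference between Treg and Tcon, -6.43 ± 0.96, did not pass (limma adjusted p = 0.856). Car11, a carbonic anhydrase-related protein, read 5.65 in K14 and 8.99 in control spleen Treg, and 5.41 in K14 and 8.12 in control gut Treg. Its direction was shared by all pairs, with Tcon differences of -1.21 and -1.08. Cask, a membrane scaffold, differed by -2.96 in the spleen and -4.71 in the gut, Stk38l, a kinase of the NDR family, by -2.69 and -3.77, and Trim36, a ubiquitin ligase, by -3.05 and -3.42. Ccl25, the chemokine that draws CCR9-bearing T cells to the small intestine, read 6.60 in K14 and 9.01 in control spleen Treg, and 5.75 in K14 and 8.81 in control gut Treg, with neither K14 array detected. Emp1, Adam4, Rad9b, Catsper2 and the zinc finger genes Zfp551 and Zfp871 complete the 12, with smaller differences between -2.31 for Rad9b and -2.51 for Zfp551. In the authors' log2 values each of the 12 highest and 12 lowest genes kept its direction with a mean difference smaller by over 1.5 times, from 2.43 for Prr18 to 1.12 for Ap3s2 and from -2.14 for Cask to -0.81 for Adam4, and the at-least folds hold on the background-corrected scale only.

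Of 20 tested effector Treg genes, 10 were higher and 5 lower in both tissues, and 5 had opposite signs. The lower ones were Lag3, Il10, Irf4, Icos and Nfil3. Both gut arrays of Il10 were near the top of the scale, so that its gut sign carries no information. The mean difference of Icos, -0.10, became 0.19 when its probes were averaged. Lag3 encodes an inhibitory receptor that itself binds MHC class II. Its signal was 474.4 units in K14 and 1864.8 units in control spleen Treg, and 1798.4 units in K14 and 10195.5 units in control gut Treg. On the log2 scale these are 8.57 and 10.55 in the spleen and 10.50 and 13.16 in the gut. Lag3 was detected on all 4 arrays and was lower in K14 in each tissue, although K14 gut Treg were about level with control spleen Treg. The mean difference of -2.32 ± 0.34 did not pass the test (limma adjusted p = 0.436), and in Tcon Lag3 differed by -0.56 and 0.23. With both pairs kept, the alternatives gave -2.37 to -2.01.

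The medians of the effector list were 0.42 in the spleen and 0.37 in the gut. The spleen median was 0.14 over the 16 members detected on all 4 Treg arrays and 0.24 over the 25 on the array without the filter. Ccr8, a chemokine receptor of activated Treg, read 7.65 in K14 and 5.72 in control spleen Treg, and 8.40 in K14 and 6.70 in control gut Treg. It was detected on no control Treg and on no Tcon array, and was at least 2.44-fold higher in K14 Treg, but in the authors' log2 values its difference was 0.60 in place of 1.81. Klrg1, a marker of terminally differentiated effector Treg, read 12.80 in K14 and 11.76 in control spleen Treg, and 14.67 in K14 and 13.24 in control gut Treg. Each K14 array was brighter than its control, while the tissues differed more than the genotypes. Lgals3, a galectin that macrophages also make in quantity, differed by 1.96 in the spleen and 0.88 in the gut, and Fgl2, a secreted suppressive protein, by 0.91 and 1.22, with a mean of 0.57 in the authors' log2 values. Cxcr3, the receptor that guides T cells to type 1 inflammation, differed by 0.59 and 0.62 in Treg and by -0.27 and -0.21 in Tcon. Itgae, the integrin that holds T cells at the epithelium, differed by 1.26 in the spleen and 0.37 in the gut, where 1 array was near the top of the scale. Irf4, a transcription factor of effector Treg, read lower in K14, with -0.32 and -0.57.

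**Figure D4:**
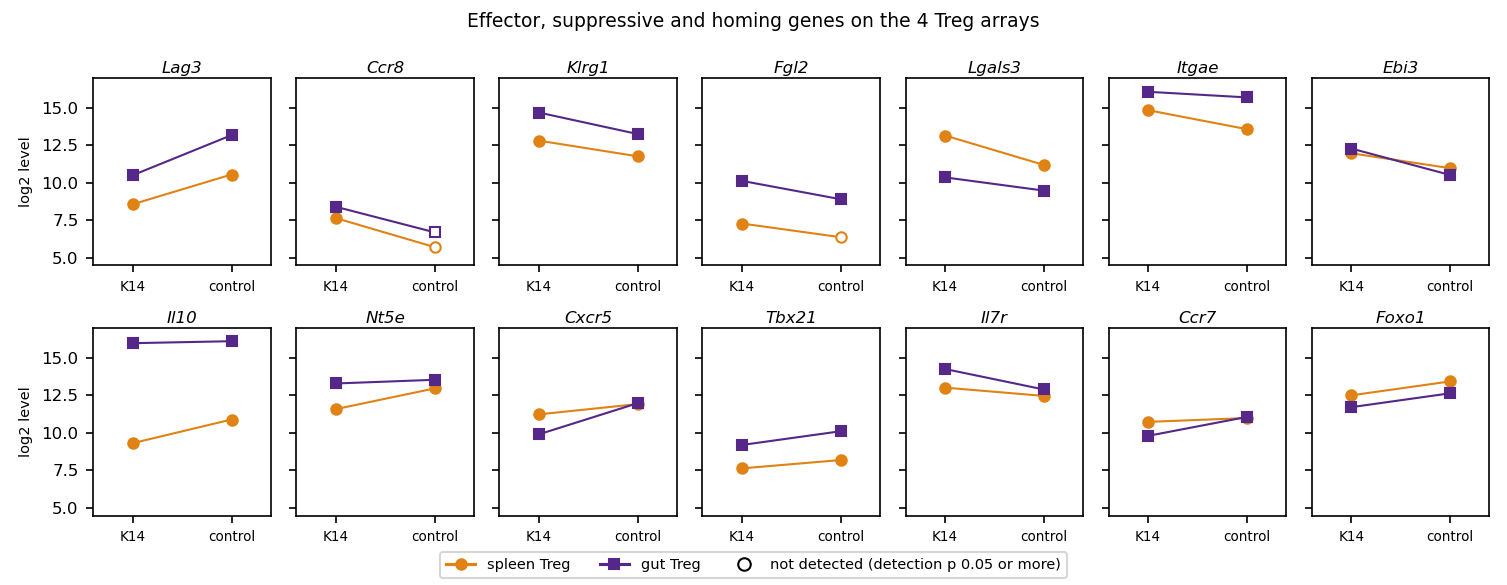
Log2 level of 14 effector, suppressive and homing genes on the K14 (left) and the control (right) Treg array of the spleen (orange circles) and the gut (purple squares). Open symbols were not detected. Lag3 climbs toward the control in both tissues (8.57 and 10.55 in the spleen, K14 and control), while Ccr8 and Klrg1 descend.

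Of 9 tested suppressive molecules, 3 were higher and 4 lower in both tissues by sign. The 4 include Il10 and Ctla4, whose gut arrays were near the top of the scale, so that their gut signs carry no information. Ebi3, a subunit of IL-35 and IL-27, read 11.96 in K14 and 10.97 in control spleen Treg, and 12.28 in K14 and 10.52 in control gut Treg. It was higher in K14 in both Tcon pairs as well, by 3.26 and 0.88. Il10, the inhibitory cytokine, read 9.31 in K14 and 10.89 in control spleen Treg, and 15.97 in K14 and 16.10 in control gut Treg, where both arrays were near the top of the scale and could not show a difference. Nt5e, the ectoenzyme CD73 that makes adenosine, differed by -1.38 and -0.24, and Ctla4, the checkpoint receptor that strips B7 ligands from antigen-presenting cells, by -0.29 in the spleen, with no gut difference readable.

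The Treg core had no common direction. Of 17 tested genes, 3 were higher and 5 lower in both tissues and 9 had opposite signs, with medians of -0.17 in the spleen and 0.03 in the gut. The 5 include Ctla4, whose gut arrays were near the top of the scale. Il2ra, the IL-2 receptor alpha chain, differed by -0.17 and 0.16, Tnfrsf4 (OX40) by -0.14 and 0.10, and Nrp1, which marks thymus-derived Treg, by 0.53 and -0.19. Ikzf2 (Helios) differed by -0.74 and 0.10, and Ikzf4 (Eos) by 1.45 and -0.73. The largest difference of a core gene was that of Gpr83, a receptor enriched in Treg, with 13.72 in K14 and 13.60 in control spleen Treg, and 9.99 in K14 and 13.03 in control gut Treg. Ikzf4 and Gpr83 were chosen after their values were seen. Swap70 read 10.99 in K14 and 11.94 in control spleen Treg and 11.09 in K14 and 11.89 in control gut Treg, and its mean difference of -0.88 was -0.44 when all its probes were averaged. Izumo1r, the folate receptor FR4, differed by -0.53 and -0.69, and in Tcon by -0.93 and -1.35. None of these differences passed the test, which does not show that the core genes were equal.

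Genes that report on TCR signals had no common direction. TCR-induced genes had 3 of 19 members higher and 5 lower in both tissues and 11 with opposite signs, with medians of -0.18 and 0.10. The 3 include Cd69, whose gut arrays were near the top of the scale. Egr2 and Cd5, whose levels follow TCR signal strength, differed by -0.17 and -0.22 and by -0.18 and -0.31 in Treg. In Tcon the differences were -2.95 and -1.37 for Egr2 and -1.81 and -0.26 for Cd5. The difference between Treg and Tcon, 1.96 ± 0.62 for Egr2, did not pass (limma adjusted p = 0.991). Nfatc1, a calcium-driven transcription factor, read 12.82 in K14 and 13.53 in control spleen Treg, and 12.95 in K14 and 13.56 in control gut Treg. Its mean difference of -0.65 was -0.19 when all its probes were averaged. Several members were lower in the spleen and higher in the gut, with -0.73 and 1.60 for Nr4a2, a nuclear receptor induced by the TCR, -0.32 and 1.38 for Dusp2, a phosphatase of MAP kinases, and -0.61 and 1.16 for Rel, an NF-kB subunit. Nr4a3, of the same receptor family as Nr4a2, read 5.71 in K14 and 5.92 in control spleen Treg, and 8.45 in K14 and 6.44 in control gut Treg, and among the 4 Treg arrays was detected on the K14 gut array alone. These 4 were chosen after their values were seen. Ier3, an early response gene, lay on the other side, with 2.51 and 0.999. Immediate early and heat shock genes, which the handling of cells also induces, had 6 of 16 members higher and 1 lower in both tissues, led by Fos with 1.45 and 0.88.

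Of 18 tested genes of the TCR complex and its proximal kinases and adaptors, 10 were lower and 1 was higher in both tissues, with medians of -0.28 in the spleen and -0.20 in the gut. Cd3e, a chain of the complex, read 14.68 in K14 and 14.99 in control spleen Treg, and 14.71 in K14 and 15.08 in control gut Treg. Zap70, the kinase recruited to it, differed by -0.40 and -0.28, Cd28, the costimulatory receptor, by -0.48 and -0.35, and Prkcq, the protein kinase C of the synapse, by -0.39 and -1.27. In Tcon the list's medians were -0.24 and -0.03. The IL-2 receptor list had 5 of 10 members lower and 0 higher in both tissues, with Il2rb at -0.89 and -0.28 (a mean of -0.35 in the authors' log2 values) and Socs2, a STAT5 target, at -0.31 and -0.45. No member of the 2 lists reached an unadjusted p under 0.05. In bulk samples fewer cells of a type and less RNA per cell cannot be told apart, and the K14 spleen array with its higher myeloid sum is 1 of the 2 behind these medians.

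Of 12 tested genes of resting T cells, 4 were higher and 5 lower in both tissues, with medians of 0.08 and -0.47. Of 12 homing and retention genes, 6 were higher and 2 lower, with medians of 0.09 and 0.48, and of 8 Gimap genes 0 were higher and 5 lower, with -0.14 and -0.16. Foxo1, a transcription factor of quiescence, read 12.50 in K14 and 13.42 in control spleen Treg, and 11.71 in K14 and 12.63 in control gut Treg. Its difference was the same in both tissues, -0.93 and -0.92. Il7r, the IL-7 receptor that Foxo1 is known to activate in naive T cells, read higher in K14, by 0.55 and 1.36. Ccr7, the lymph node homing receptor, differed by -0.25 and -1.26, Id3, a brake on E proteins, by -0.26 and -1.35 (a mean of -0.39 in the authors' log2 values), and Bcl2, a survival gene, by 0.47 and -0.55. Cxcr4, a receptor for the bone marrow chemokine, differed by 0.26 and 0.51, and S1pr4, a sphingosine phosphate receptor, by 0.21 and 1.29. Cxcr5, the follicle homing receptor, read 11.23 in K14 and 11.91 in control spleen Treg, and 9.90 in K14 and 11.97 in control gut Treg. It was lower in both Tcon pairs as well, by -1.01 and -1.31. Tbx21, the type 1 lineage factor, differed by -0.55 and -0.91 (a mean of -0.44 in the authors' log2 values), and Bcl6, the follicular lineage factor, by -0.60 and -0.18. Gimap5, a GTPase needed for T cell survival, was the only one of 8 Gimap genes to be lower by 1 log2 in both tissues, with -1.71 and -1.19, and its mean difference of -1.45 was -0.86 when all its probes were averaged.

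Of 28 interferon-stimulated genes, 15 were higher and 4 lower in both tissues, with medians of 0.12 and 0.34. Of the 15, 13 were detected on both K14 arrays. Oasl2 and Oas2, of the antiviral oligoadenylate synthetase family, differed by 1.09 and 1.22 and by 2.15 and 0.77. Bst2, which tethers budding virus, differed by 0.76 and 1.41. Tcon medians of this list were 0.32 and 0.70. Metabolic lists had small medians. Respiratory chain genes had 20 of 59 higher and 3 lower with medians of 0.04 and 0.25. Ribosomal protein genes had 23 of 54 higher and 4 lower with 0.01 and 0.12. Glycolysis genes had 4 of 13 higher and 3 lower with 0.06 and 0.18, and cholesterol synthesis genes 6 of 9 higher (4 detected on both K14 arrays) and 2 lower with 0.27 and 0.08. Survival and apoptosis genes had 1 of 13 higher and 3 lower. Helper lineage genes had 5 of 18 higher and 6 lower, of which 2 and 4 were detected on both brighter arrays.

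**Figure D5:**
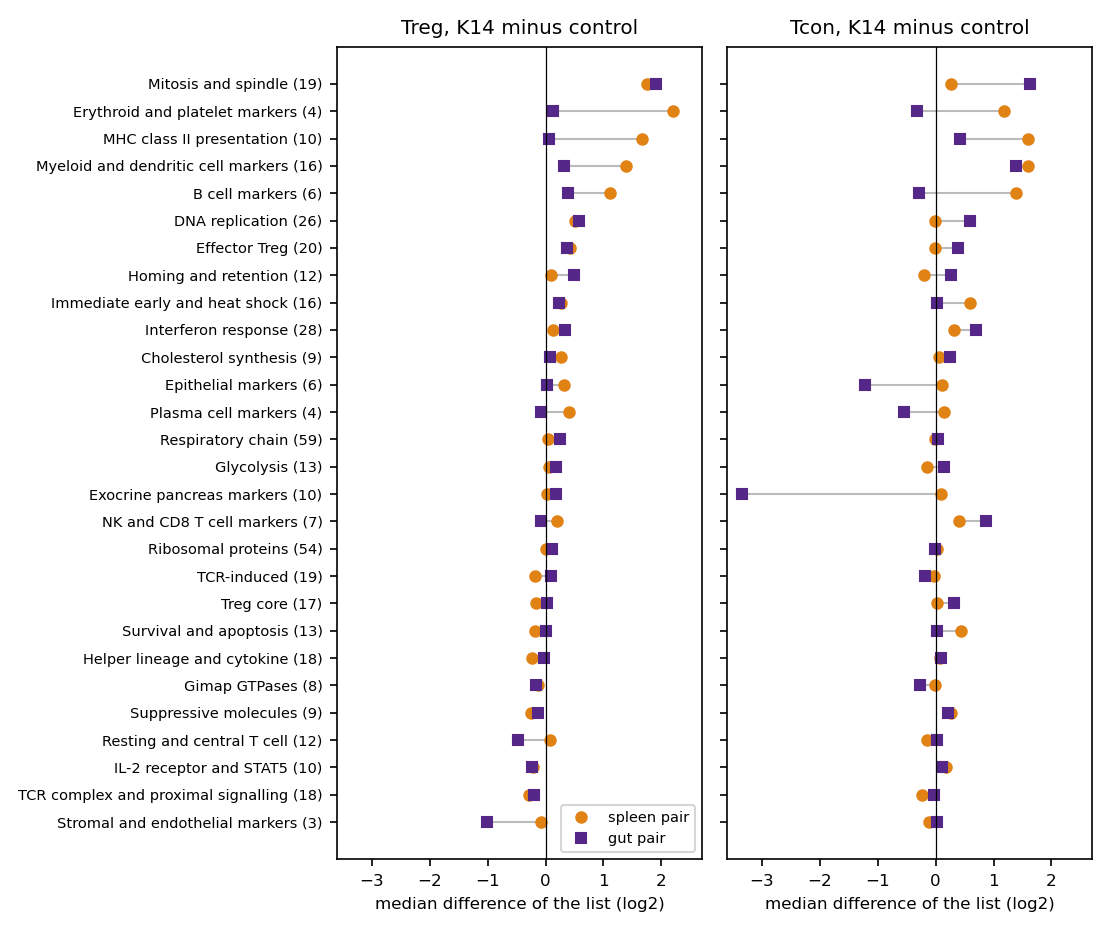
Median difference (K14 minus control, log2) of each gene list in the spleen pair (orange circles) and the gut pair (purple squares), for Treg (left panel) and Tcon (right panel), with the number of genes tested in parentheses. The mitosis list lies at 1.75 and 1.90 in the Treg panel. The markers of myeloid, B and erythroid cells are spread apart, with the spleen pair on the right.

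Markers of myeloid, B and erythroid cells had larger medians in the spleen than in the gut pair. Of 16 tested myeloid and dendritic cell markers, 11 were higher and 0 lower in both Treg pairs, with medians of 1.39 in the spleen and 0.32 in the gut, and of 1.59 and 1.39 in Tcon. Of the 11, 7 were detected on both K14 arrays. The filter bears on this count too, since 13 of the 23 on the array were detected in K14 and 8 in control spleen Treg. Without it, 11 of 23 were higher and 1 lower, with medians of 0.59 and 0.16, and only 4 members were detected on all 4 Treg arrays. Fcer1g, the Fc receptor gamma chain, read 10.47 in K14 and 6.70 in control spleen Treg, and 8.36 in K14 and 5.95 in control gut Treg, at least 6.41-fold higher, and its mean difference of 3.09 was 1.45 in the authors' log2 values. Lyz2, S100a8 and Cd14 were detected on the K14 spleen array alone among the 4 Treg arrays, and Itgam, Itgax, Cybb and Spi1 on none of the 8. B cell markers summed to 18306.5 in K14 and 5991 in control spleen Treg, and to 7433 in K14 and 4252 in control gut Treg, led by Cd79b, the B cell receptor chain, with 1.69 and 0.88. Pax5, Cr2 and Ebf1 were detected on no array.

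Class II genes, like these markers, had a larger median in the spleen than in the gut pair, 1.67 against 0.06. Cd74, the invariant chain, read 13.80 in K14 and 11.91 in control spleen Treg, and 12.65 in K14 and 11.32 in control gut Treg, with 1.83 and 1.80 in Tcon (mean Treg difference 1.61 ± 0.26, limma adjusted p = 0.436). H2-Eb1 differed by 2.10 and 0.85, and H2-Aa by 2.60 and 0.23, with a mean of 0.68 in the authors' log2 values. Of 10 class II presentation genes, 5 were higher and 1, H2-DMa, was lower in both Treg pairs, and 4, H2-Ab1 among them, had opposite signs. NK and CD8 T cell markers had 2 of 7 higher and 0 lower, epithelial markers 2 of 6 higher and 1 lower, exocrine pancreas markers 3 of 10 higher and 1 lower (none of these 5 higher ones detected on both K14 arrays), stromal markers 0 of 3 higher and 2 lower, and plasma cell markers 0 of 4 either way. No mast cell marker was tested. The part of other cells in the differences of single genes was not tested.

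The genes chosen by at least 1 log2 in both Treg pairs were read in Tcon too, which the choice did not use. Of the 133 higher genes, 55 (41.35%) were higher in both Tcon pairs and 27 (20.3%) lower in both, against 26.26% and 26.23% of all genes. Of the 120 lower genes, 49 (40.83%) were lower in both Tcon pairs and 18 (15%) higher. Whether the Treg and Tcon pools of a genotype came from the same mice is not given in the sources used here, so these arrays may share their animals.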

How the data were processed

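Illumina mouse bead arrays, 8 in all, each measured the RNA of 1 pool of sorted T cells. The non-normalized deposited table holds, per the file headers, the linear intensity of each probe and its detection p-value. A second deposited table holds the authors' log2 values, with medians of 8.28 to 8.30 per array, whose rank order matched that of the intensities (Spearman correlation 1). Their normalization and centring are not given in the sources used here, so they served as an alternative only.

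limma 3.58.1 (R 4.3.3) was used throughout. Its nec step estimated the background from the detection p-values and added an offset of 16, and quantile normalization and log2 followed. A probe was kept if 2 or more of the 8 arrays detected it (p under 0.05). That left 10021 probes with a gene name. With nothing expressed, 1471 of the 25697 probes would be kept. Of all probes, 23978 had 1 gene symbol in the platform's annotation, 0 had several and 1719 had none. The brightest probe by mean stood for its gene, giving 7916 genes. limma's lmFit and eBayes took a term for each of the 4 pairs and a genotype term within Treg and within Tcon (2 residual degrees of freedom, prior 2.21), with Benjamini-Hochberg adjustment over all genes. The pairs come from the labels, which give both arrays of a pair the same tissue and cell type. The replicate numbers in the titles run with the genotype and mark no repeats. A tissue difference of the genotype effect within Treg leaves no residual degree of freedom and was not tested. The pipeline was tested on simulated data.

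Where a gene was detected on no array of 1 genotype, its fold is a lower bound, the brighter group's mean against the mean of, per array, the higher of the lowest level above background and the gene's own. Named are, among genes of 1 direction in both tissues, the 12 with the largest and the 12 with the most negative smaller difference, up to 5 members of each of 29 lists, a set of genes always named, and the 3 largest opposite differences each way, skipping predicted transcripts. Other genes named were picked for their roles after their values were seen. The members and the lists were chosen with earlier results of these data known. Promoter windows are from RefSeq, 1 per gene. Alternatives were other values, background corrections, centring, offsets, filters, probe rules, samples and fold limits. The number of arrays limits the precision.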

Additional observations from a re-analysis of the deposited data

Results flagged for a closer look

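The 6 genes with the largest such differences differed by at least 1 log2 in opposite directions in the 2 tissues on arrays that detected them, and the difference between tissues was not tested, since 1 array a group leaves no error for it. Hdc, the enzyme that makes histamine, differed by 6.38 in spleen Treg and by -3.48 in gut Treg (K14 minus control, log2). Rpl6, a ribosomal protein, differed by 4.54 and -4.47, and Nacc2, a BTB domain repressor, by 4.87 and -3.82. On the other side were Nrep with -2.20 in the spleen and 4.495 in the gut, Vezt, an adherens junction protein, with -3.11 and 2.36, and Mzf1, a zinc finger factor, with -2.67 and 2.33.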

How the results depend on the processing

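The 0 genes past the test within Treg, and the 0 genes past the test of Treg against Tcon, stayed at 0 under each alternative run. The settings were the log2 values of the authors, uncorrected signals, centring on the median, a larger offset (50), no filter, detection on 2 of the 4 Treg arrays, a detection p under 0.01 and averaged probes. For the count within Treg they also included the 4 Treg arrays alone with and without tissue as a block, and leaving out either Treg pair. Detection on 2 of the 4 Tcon arrays and leaving out the gut Tcon pair, whose control array holds pancreas transcripts, were added after seeing the data. Within Treg, 283 to 613 of the filtered genes (898 of 16593 without the filter) had an unadjusted p under 0.05, and the smallest adjusted p lay between 0.302 and 0.86. The 133 higher and 120 lower genes became 46 and 29 with the authors' values, 63 and 42 without background correction, and 295 and 292 at 0.58 log2. Within 1 tissue alone the higher genes were 516 to 611 and the lower genes 551 to 578, where the rule asks for 1 pair in place of 2. The other settings kept these counts within 1.5 times. Of these, no filter and detection on 2 of the 4 Treg arrays gave 133 and 120 again. Those 2 settings are no check of these counts, since the rule itself asks for detection on 2 Treg arrays. When probes were averaged, 3 named genes with small differences changed sign: Icos gave 0.19 in place of -0.10, Stat5a 0.055 in place of -0.045 and Bid 0.024 in place of -0.096. No other named gene with 1 direction in both tissues did so. The mitosis median of 1.70 was 1.21 with the authors' values, 1.34 without background correction and 0.59 without the filter. No paired analysis was possible because the replicate numbers run with the genotype, beyond the pairing by tissue that the fit already holds.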
